A study of Mus musculus with 24 samples.

Results

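A set of 10 imprinted genes was followed on 24 arrays of female mouse mammary gland. They were Peg13, Peg3, Mest, H19, Igf2, Meg3, Dlk1, Grb10, Plagl1 and Cdkn1c, out of the 34797 gene names on the array. Every probe that carried the name of a member was kept, which gave 25 of 55681 probes, printed as 34 spots. The group was selected on a measured value, the low Peg13 signal of 1 irradiated gland at 8 weeks, so the LDIR comparison at 8 weeks is given as a description and nothing is read from a test of it. LDIR stands for low-dose ionizing radiation, a single whole-body X-ray dose of 10 cGy given at 8 to 9 weeks of age, and sham mice of the same age were the controls. BALB/c mice are a common inbred laboratory strain. SPRET/EiJ mice are also inbred but descend from another species, Mus spretus, caught in the wild. BALB/c glands were taken at 2, 4 or 8 weeks after LDIR or sham treatment and SPRET/EiJ glands at 4 weeks, with 3 arrays in each of the 8 groups. No allele was engineered in either strain, and the study's methods call the arrays of a group biological replicates. The labels do not say whether each array is a separate mouse, so the p-values measure the spread between arrays. Total RNA of whole tissue was hybridised to single-colour Agilent arrays with 60-base probes. A level below is the log2 signal of a probe minus the 75th percentile of its array, so 0 means a signal equal to that percentile, and levels of different probes are not compared.

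Imprinted genes are transcribed mainly from the copy of a single parent, under the control of DNA methylation set in the germ line. Peg13, Peg3, Mest, Igf2, Dlk1 and Plagl1 are known as paternally expressed genes, and H19, Meg3 and Cdkn1c as maternally expressed genes. Grb10 is maternally expressed in most tissues. Many of them act on fetal growth and fall after birth, and several mark mesenchymal and preadipocyte cells, which the mammary fat pad contains. The probes read the total RNA of a gene and do not separate the parental copies. On all 24 arrays, 18 of the 25 probes were well above background. Each gene is led below by its probe with the highest mean, and its other probes are given by value, range or count. Single probes read 4 genes, Peg13, Igf2, Grb10 and Cdkn1c, while Peg3 and Dlk1 had 2, Mest and Meg3 had 3, Plagl1 had 4 and H19 had 7.

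Peg13, H19 and Meg3 are noncoding RNAs, and their probe sequences are shown because results below turn on which stretch of the RNA was read. Peg13 had a single probe, so its low value on 1 array has no second probe beside it. H19 had a leading probe and a dim probe that did not follow it, and the leading and the dim Meg3 probe went in different directions between the strains. Coordinates are of mm9, the build named in the array files, and the exon or intron under each probe is not given there.
Peg13, A_66_P136801, chr15:72636072-72636131, minus strand: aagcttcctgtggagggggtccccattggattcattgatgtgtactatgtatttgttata
H19 leading, A_55_P1961127, chr7:149761492-149761551, minus strand: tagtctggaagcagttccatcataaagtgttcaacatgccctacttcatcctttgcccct
H19 dim, A_55_P1961125, chr7:149762417-149762476, minus strand: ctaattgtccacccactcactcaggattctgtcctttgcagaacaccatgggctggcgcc
Meg3 leading, A_51_P455997, chr12:110809678-110809737, plus strand: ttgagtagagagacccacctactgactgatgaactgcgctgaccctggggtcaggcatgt
Meg3 dim, A_52_P196568, chr12:110799558-110799617, plus strand: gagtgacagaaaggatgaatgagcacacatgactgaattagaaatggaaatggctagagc

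A set of 3 arrays stood apart in marker levels, a split made after the data were seen. The sham BALB/c array A at 8 weeks, the LDIR BALB/c array B at 8 weeks and the LDIR SPRET/EiJ array A had summed lymphocyte markers (such as Cd3e and Cd79a) at 7.06 to 7.46 on the log2 scale, against 3.90 to 4.94 on the other 21 arrays. They also had the lowest summed stromal markers (such as Pdgfra, Col1a1 and Dpp4), 7.48 to 7.76 against 7.99 to 9.52. White and brown adipocyte markers were lowest on them too, at 9.89 to 10.2 and 2.59 to 3.72, where the next array read 10.8 and 4.27. Of the 10 leading probes, 8, 9 and 9 lay below both other arrays of their group on these 3 arrays, with median differences of -1.34, -1.42 and -1.12. Peg3, Mest, H19, Meg3, Dlk1, Grb10, Plagl1 and Cdkn1c did so on all 3 arrays, and Peg13 and Igf2 on 1 of 3. For LDIR BALB/c array B, Peg13 was set against the low value on which the members were chosen, so nothing is read from it there. On the other 21 arrays at most 7 of the 10 leading probes were lowest in their group, on LDIR BALB/c array C at 2 weeks. The share of all probes that lay below both other arrays was not counted, so the drop is not shown to be particular to the members. In whole tissue, fewer cells of a type and less RNA per cell cannot be told apart, and the part of the lymphocyte signal in the results was not tested. The labelled tissue showed its markers, since all 11 epithelial and all 9 white adipocyte markers were well above background on all 24 arrays. The share of probes well above background ran from 57.1% to 72.6% across the arrays.

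**Figure D1:**
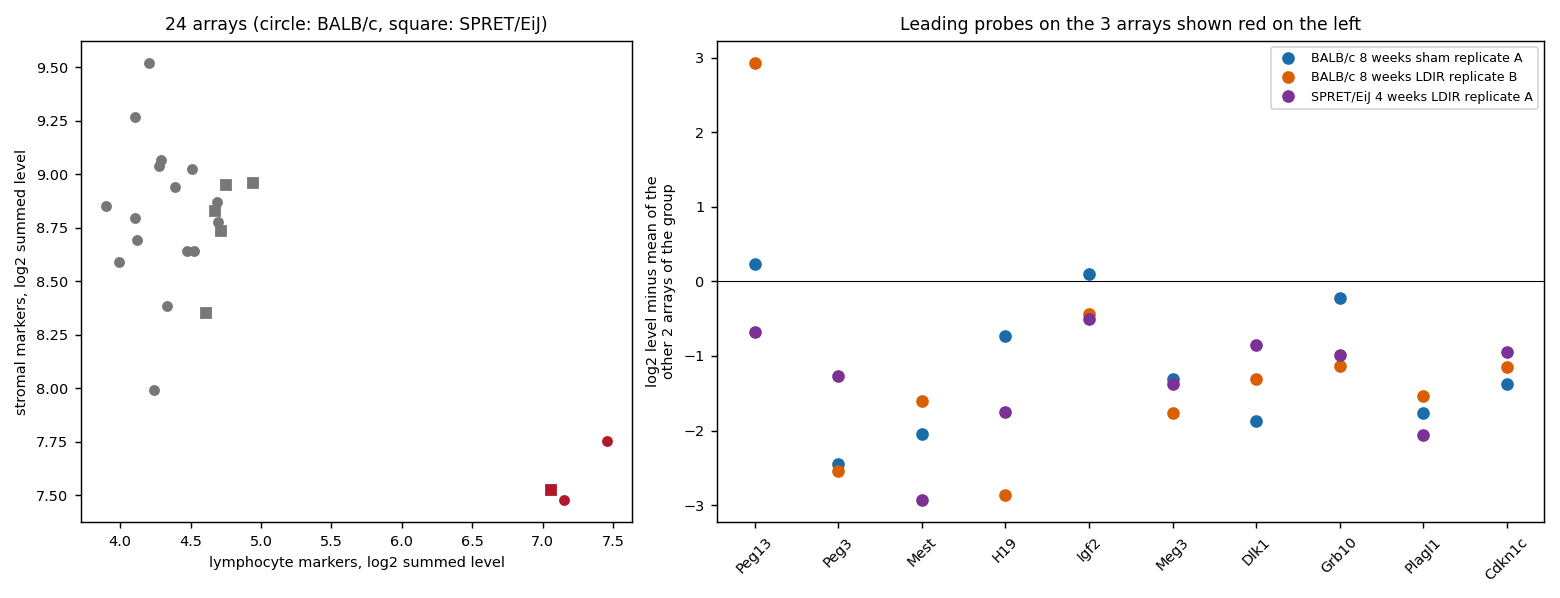
Left, summed lymphocyte and summed stromal marker level of each of the 24 arrays (log2); the 3 red points lie at 7.06 or more for lymphocyte markers. Right, log2 level of the 10 leading probes on those 3 arrays minus the mean of the other 2 arrays of the group; 8 of the 10 genes lie below 0 on all 3 arrays.

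The largest contrast among the members was Mest, an alpha/beta-hydrolase-fold protein gene known for its variable expression in expanding fat. Its leading probe, A_51_P124535, read -2.09, -2.06 and -1.46 in sham BALB/c glands at 4 weeks. In sham SPRET/EiJ glands it read 3.51, 5.50 and 1.27. LDIR glands at 4 weeks gave -2.06, -1.49 and -1.68 in BALB/c and 0.33, 2.96 and 3.57 in SPRET/EiJ. All 6 SPRET/EiJ arrays were above all 18 BALB/c arrays, which ran from -2.64 to 0.02 with a median of -1.42. The spread among SPRET/EiJ arrays was wide, with an SD of 2.11 in sham and 1.72 in LDIR glands. Sham BALB/c was lower than sham SPRET/EiJ by a log2 difference of -5.30 ± 0.99 (SE, n = 3 and 3, 39.3-fold), with an adjusted p of 0.0145 (limma, Benjamini-Hochberg over the whole array). In LDIR glands, which share no array with the sham comparison, the difference was -4.03 ± 0.80 (16.3-fold, limma adjusted p = 0.0245).

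The other Mest probes gave the same direction. A_55_P2090025 differed by -6.23 in sham glands (limma adjusted p = 0.0081) and by -4.75 in LDIR glands (limma adjusted p = 0.0168). A_55_P2151868, which lies upstream of the other 2 on the plus strand, differed by -5.31 in sham glands (limma adjusted p = 0.011) and by -4.02 in LDIR glands (limma adjusted p = 0.0213). The 3 probes rose and fell together from array to array, with correlations of 0.93 to 0.98 across 24 arrays after removal of the group means. Within SPRET/EiJ the lowest value of the leading probe, 0.33, was on the LDIR array that was high in lymphocyte markers. Without that array the LDIR difference between strains was -5.01 ± 0.28 (limma adjusted p = 0.0014). When any 1 of the other 5 LDIR arrays was left out the leading probe differed by -4.15 to -3.39, but its adjusted p was 0.0612 to 0.0968 (limma) and no Mest probe passed the strain thresholds. Sham array C, at 1.27, was the lowest of the sham SPRET/EiJ arrays, and without it the sham difference was -6.37 ± 0.61 (limma adjusted p = 0.0037). Without array B, the highest at 5.50, it was -4.26 ± 0.68 (limma adjusted p = 0.0165). Without BALB/c array A, B or C it was -5.19, -5.20 and -5.50 (limma adjusted p = 0.0596, 0.0486 and 0.041), and no Mest probe passed the strain thresholds.

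Over the 25 probes, 2 passed the strain thresholds in sham glands (over 1.5-fold and unadjusted p under 0.001, limma), both of them Mest probes, where 8.89% of all probes passed. At an adjusted p under 0.05 the count was 5, where 18.8% of all probes passed. The groups did not overlap for 16 of the 25, where 38.0% of all probes did not overlap. In LDIR glands 2 probes passed the thresholds, 1 of Mest and 1 of Dlk1, against 5.67% of all probes, 6 had an adjusted p under 0.05, against 11.1%, and 7 did not overlap, against 33.5%. These counts rested on single arrays. In sham glands no probe passed the thresholds when any 1 of the 3 BALB/c arrays was left out, and 2 to 4 had an adjusted p under 0.05. In LDIR glands 9 passed without SPRET/EiJ array A, the one high in lymphocyte markers (3 of Mest, 5 of H19 and 1 of Dlk1), and 13 had an adjusted p under 0.05, with a median of -1.11. Over all probes 4397 passed in that fit, against 3157 with all arrays, and 11061 had an adjusted p under 0.05, against 6182. The median difference over the 25 probes, BALB/c minus SPRET/EiJ, was -0.94 in sham and -0.79 in LDIR glands, beside -0.08 and -0.06 over all probes. In LDIR glands it was -0.54 without SPRET/EiJ array B, -0.41 without array C and -0.38 with normexp background correction. The 3 Mest and 6 of the 7 H19 probes make up 9 of the 25, so this median leans on a pair of genes. Between the 2 comparisons 23 probes had the same sign, and 4 had an adjusted p under 0.05 in both: the 3 of Mest and A_55_P2105371 of Dlk1.

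**Figure D2:**
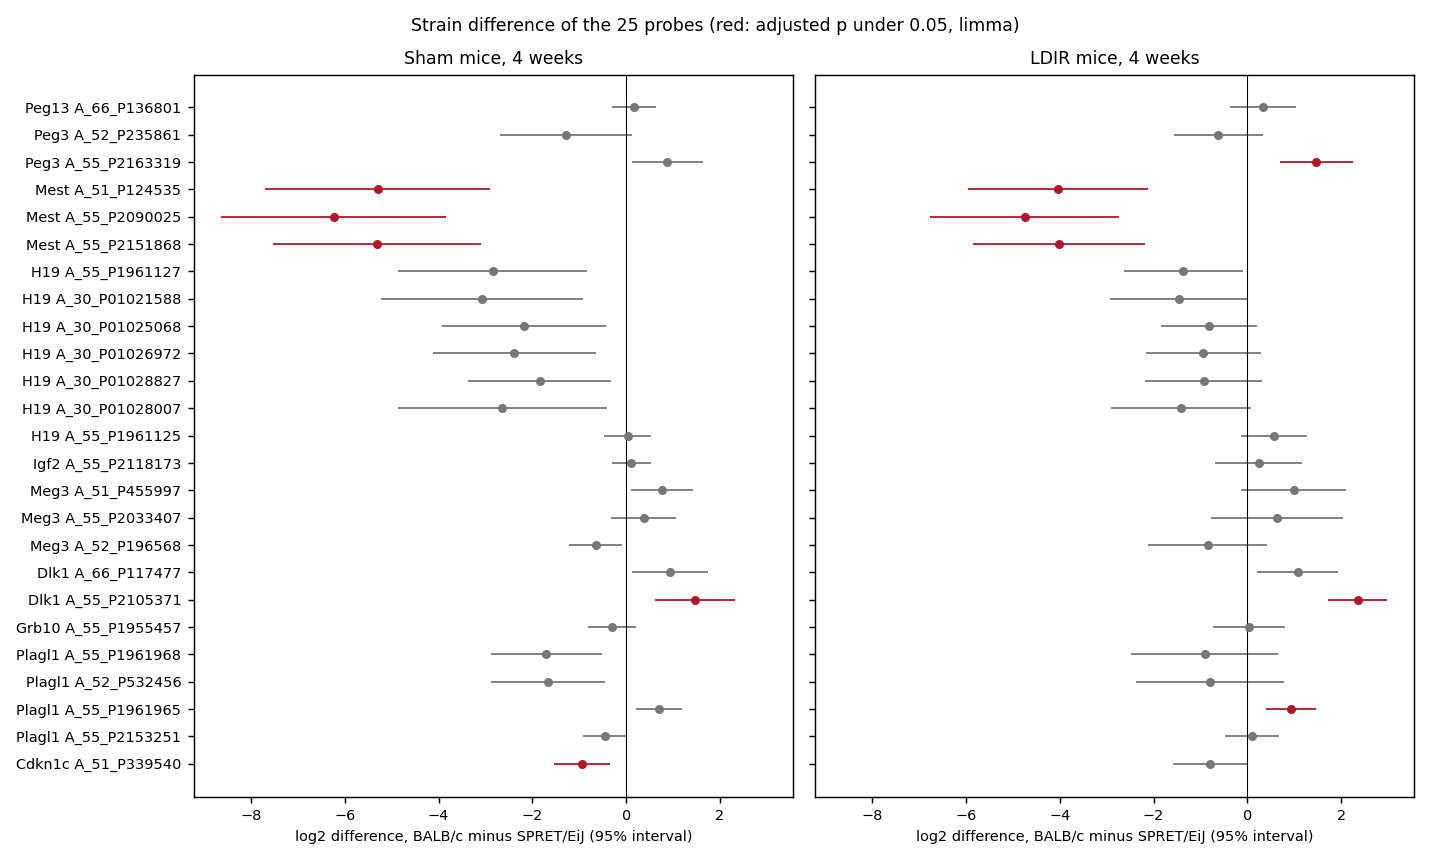
Log2 difference, BALB/c minus SPRET/EiJ at 4 weeks, of each of the 25 probes with its 95% interval, in sham (left) and LDIR (right) glands; red marks an adjusted p under 0.05. The 3 Mest probes lie between -6.23 and -4.02, and the probes of Plagl1, Meg3, Peg3 and H19 fall on both sides of 0 within a gene.

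Dlk1, a transmembrane EGF-repeat protein that holds preadipocytes undifferentiated, went the other way. Its leading probe, A_66_P117477, read -1.92, -1.50 and -1.39 in sham BALB/c and -3.23, -2.18 and -2.18 in sham SPRET/EiJ glands at 4 weeks. The difference was 0.93 ± 0.34 (limma adjusted p = 0.112) in sham and 1.07 ± 0.36 (limma adjusted p = 0.121) in LDIR glands, with no overlap of the groups in either. The dimmer probe A_55_P2105371 read -5.18 to -3.00 on the 18 BALB/c arrays and -6.56 to -5.30 on the 6 SPRET/EiJ arrays, which did not overlap. On none of the 6 SPRET/EiJ arrays did it clear background, so only a bound can be given: BALB/c was at least 2.11-fold higher in sham (measured log2 difference 1.46, limma adjusted p = 0.0337) and at least 2.48-fold higher in LDIR glands (2.35, limma adjusted p = 0.0034). For such a bound, each array of the dim group counts at its lowest well-detected signal or at the signal of the probe, whichever is higher. With normexp background correction the LDIR difference of this dim probe was 0.28 and it no longer passed.

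H19, a noncoding RNA next to Igf2 that is highly expressed in fetal tissue, was variable among the arrays of both strains. The leading probe read 0.23, -0.97 and -0.09 in sham BALB/c and 0.69, 3.89 and 3.13 in sham SPRET/EiJ glands, a difference of -2.85 ± 0.83 (limma adjusted p = 0.0615). The groups did not overlap, and the low SPRET/EiJ value was array A. Without that array the difference was -3.79 ± 0.44 (limma adjusted p = 0.0067) and 5 H19 probes passed the strain thresholds, while no Mest probe did (leading Mest -5.25, limma adjusted p = 0.0444). In that fit 3427 of all probes passed, against 4950 with all arrays. In LDIR glands the leading probe read -0.60, 0.28 and -0.07 in BALB/c and 0.07, 1.71 and 1.93 in SPRET/EiJ, and the groups overlapped. That difference was -1.37 ± 0.53 (limma adjusted p = 0.169) with all arrays and -1.95 ± 0.30 (limma adjusted p = 0.0138) without LDIR array A, the array high in lymphocyte markers. The direction was the same with and without each of these arrays. The leading probe passed the strain thresholds in sham glands without array A but not with it, and in LDIR glands in neither fit.

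All but 1 of the 7 H19 probes moved together, with correlations of 0.97 to 0.99 over the 24 arrays after removal of the group means. Their strain differences were -3.08 to -1.84 in sham and -1.46 to -0.82 in LDIR glands, or -2.19 to -1.31 without LDIR SPRET/EiJ array A. The remaining probe was A_55_P1961125, the dim probe printed above, whose correlation with the other 6 was -0.03 to 0.03. Its levels lay between -4.68 and -3.23 on all arrays, a range of 1.45, while the leading probe had a range of 4.86. Its sham strain difference was 0.04 (95% interval -0.47 to 0.54). All 7 probes are on the minus strand, and the dim probe lies farthest from the leading probe of the set.

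Plagl1, a zinc-finger transcription factor gene, had probes that differed in sign between the strains. The leading probe A_55_P1961968 read 4.05, 2.96 and 3.53 in sham BALB/c and 4.54, 6.19 and 4.91 in sham SPRET/EiJ glands, a difference of -1.70 ± 0.49 (limma adjusted p = 0.0595). A_52_P532456 followed it with a correlation of 1.00 (24 arrays, group means removed) and a sham difference of -1.67. The probe A_55_P1961965 differed by 0.70 in sham glands (limma adjusted p = 0.0616) and by 0.93 in LDIR glands (limma adjusted p = 0.0439), higher in BALB/c. A_55_P2153251 differed by -0.45 (limma adjusted p = 0.164) in sham and by 0.10 (95% interval -0.48 to 0.68) in LDIR glands, where it was -0.03 without SPRET/EiJ array A. The leading probe and A_52_P532456 share a run of 26 bases, shown here because it makes them partly the same measurement.
Shared stretch of the 2 bright Plagl1 probes: atctcctaacctttgatgactctgta
The probe A_55_P1961965 has no run of more than 6 bases in common with any other Plagl1 probe. The sequence of SPRET/EiJ under the probes, which are given on the mm9 reference, was not examined.

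**Figure D3:**
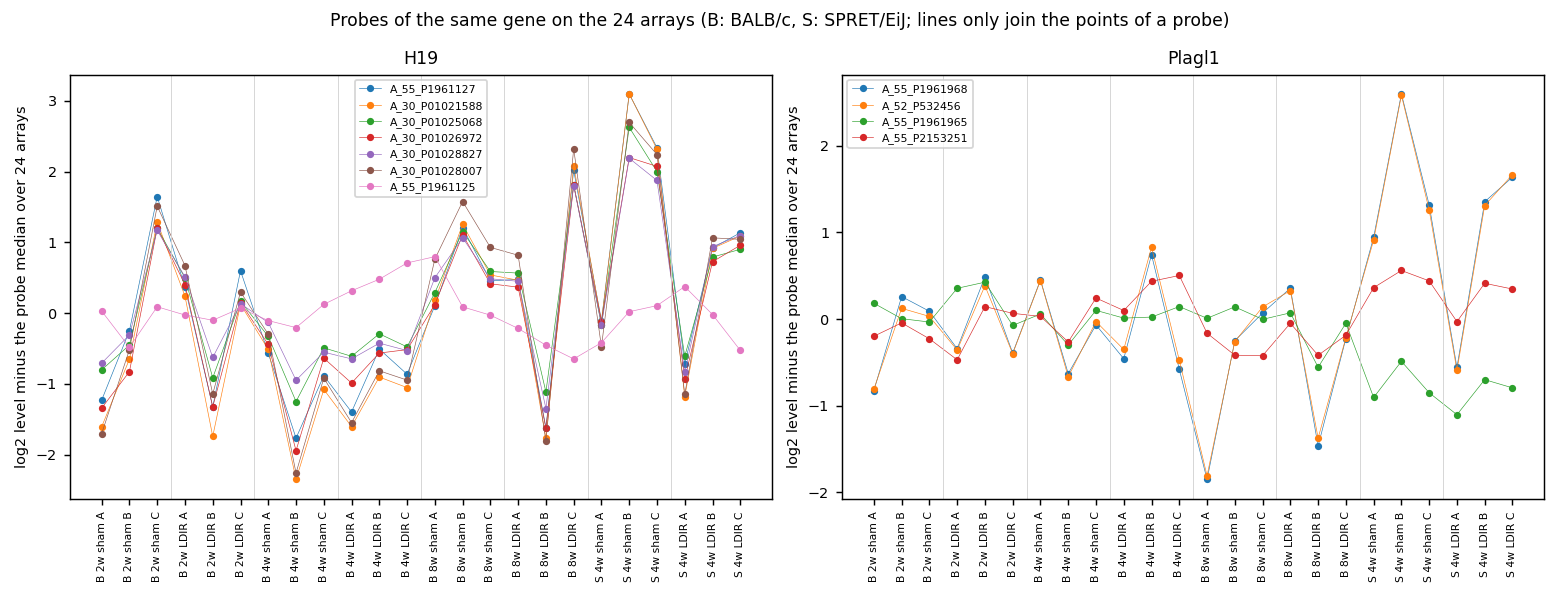
Log2 level of each H19 probe (left) and each Plagl1 probe (right) on the 24 arrays, minus the median of that probe over the arrays. For H19, 6 probes rise and fall together and A_55_P1961125 does not follow them, and Plagl1 A_55_P1961965 lies lower on the SPRET/EiJ arrays where the 2 bright probes are mostly higher.

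Cdkn1c, which encodes the cyclin-dependent kinase inhibitor p57, read 2.85, 2.16 and 2.68 in sham BALB/c and 3.63, 3.23 and 3.65 in sham SPRET/EiJ glands. BALB/c was lower by -0.94 ± 0.24 (1.92-fold, limma adjusted p = 0.0435), and the groups did not overlap. In LDIR glands the difference was -0.80 ± 0.33 (limma adjusted p = 0.201). Without the LDIR SPRET/EiJ array A it was -1.11 ± 0.22 (limma adjusted p = 0.0255).

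Meg3, a noncoding RNA transcribed from the maternal copy beside Dlk1, read 2.14, 2.43 and 2.40 in sham BALB/c and 1.14, 1.46 and 2.08 in sham SPRET/EiJ glands with its leading probe. The difference was 0.77 ± 0.27 (limma adjusted p = 0.108). The dim probe A_52_P196568 pointed the other way, with a difference of -0.65 (limma adjusted p = 0.108), and the groups did not overlap for either probe. The correlation of the leading with the dim probe was 0.51 over 24 arrays with group means removed. In LDIR glands these probes differed by 0.99 and -0.85, with adjusted p-values of 0.254 and 0.383 by limma. Without SPRET/EiJ array A they differed by 0.53 and -1.37, with adjusted p-values of 0.307 and 0.0655.

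Peg3, which encodes a large zinc-finger protein, also had probes of opposite sign. The leading probe A_52_P235861 read -1.72, -3.66 and -2.25 in sham BALB/c and -1.53, -0.45 and -1.80 in sham SPRET/EiJ glands (difference -1.28 ± 0.58, limma adjusted p = 0.19). A_55_P2163319 differed by 0.88 in sham glands (limma adjusted p = 0.108) and by 1.47 in LDIR glands (limma adjusted p = 0.0351). None of the LDIR SPRET/EiJ arrays read it well above background, so BALB/c was higher by a factor of at least 1.45. Without LDIR SPRET/EiJ array A the measured difference was 1.32 (limma adjusted p = 0.0514). The 2 probes still rose and fell together within groups, with a correlation of 0.81 over 24 arrays.

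Peg13, Igf2 and Grb10 did not pass in either strain comparison. The Peg13 difference was 0.16 (95% interval -0.31 to 0.63) in sham and 0.33 (-0.36 to 1.03) in LDIR glands, or 0.11 without SPRET/EiJ array A. Igf2, the fetal growth factor gene, read -3.71, -3.52 and -3.59 in sham BALB/c and -3.92, -3.55 and -3.69 in sham SPRET/EiJ glands. It stayed between -4.30 and -2.95 on all arrays and differed by 0.11 (-0.31 to 0.53) in sham glands. Grb10, an adaptor that dampens insulin and IGF1 receptor signalling, differed by -0.31 (-0.82 to 0.20).

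Slides limit the strain results. Sham BALB/c arrays at 4 weeks lay on slides 1 and 2 and all SPRET/EiJ arrays on slide 3. Among the arrays compared no slide held both strains, so a fit of these alone does not separate slide from strain. With slide as a random block, chosen after the data were seen and under the same limit, all 3 Mest probes passed the strain thresholds in sham glands, and the leading probe differed by -5.31 ± 0.89 (limma adjusted p = 0.0081). The LDIR BALB/c arrays at 4 weeks were all on slide 2, so the arrays of that comparison alone do not separate slide from strain. In a fit of all 24 arrays with slide as a fixed block, slide 3 is linked to the others only by the LDIR BALB/c glands at 8 weeks, with array A on slide 2 and arrays B and C on slide 3. In that fit A_55_P2151868 was the only Mest probe past the thresholds in sham glands, and no Mest or Dlk1 probe passed in LDIR glands. Leading Mest differed by -6.15 ± 1.87 (limma adjusted p = 0.0963) in sham and by -5.29 ± 1.63 (limma adjusted p = 0.0949) in LDIR glands. Peg13 passed in both, and its link between slides includes the low value on which the members were chosen, so nothing is read from it. Other markers moved with strain. Summed epithelial markers were 5.21 to 7.25 in SPRET/EiJ and 7.35 to 9.11 in BALB/c arrays. The Schwann cell list was 6.54 to 9.15 against 3.36 to 4.56, carried by S100b, at a group mean of 8.21 in sham and 7.50 in LDIR SPRET/EiJ glands and at most 0.98 in any BALB/c group. The 5 brown adipocyte markers had a median difference of -3.18 in sham and -3.49 in LDIR glands, with an adjusted p under 0.05 for 4 and 3 of them, and among these Cox8b was higher in BALB/c, by 5.31 in sham glands. Their summed level was 6.33 to 7.28 in sham BALB/c and 6.34 to 6.72 in sham SPRET/EiJ glands. Of the 5 Schwann cell genes only S100b and Mbp passed the strain thresholds. Leading Mest correlated with the Schwann cell list at 0.80 over the 24 arrays, and at 0.91 over the 18 without the 8-week groups, after removal of the group means. The part of these markers in the member differences was not tested.

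**Figure D4:**
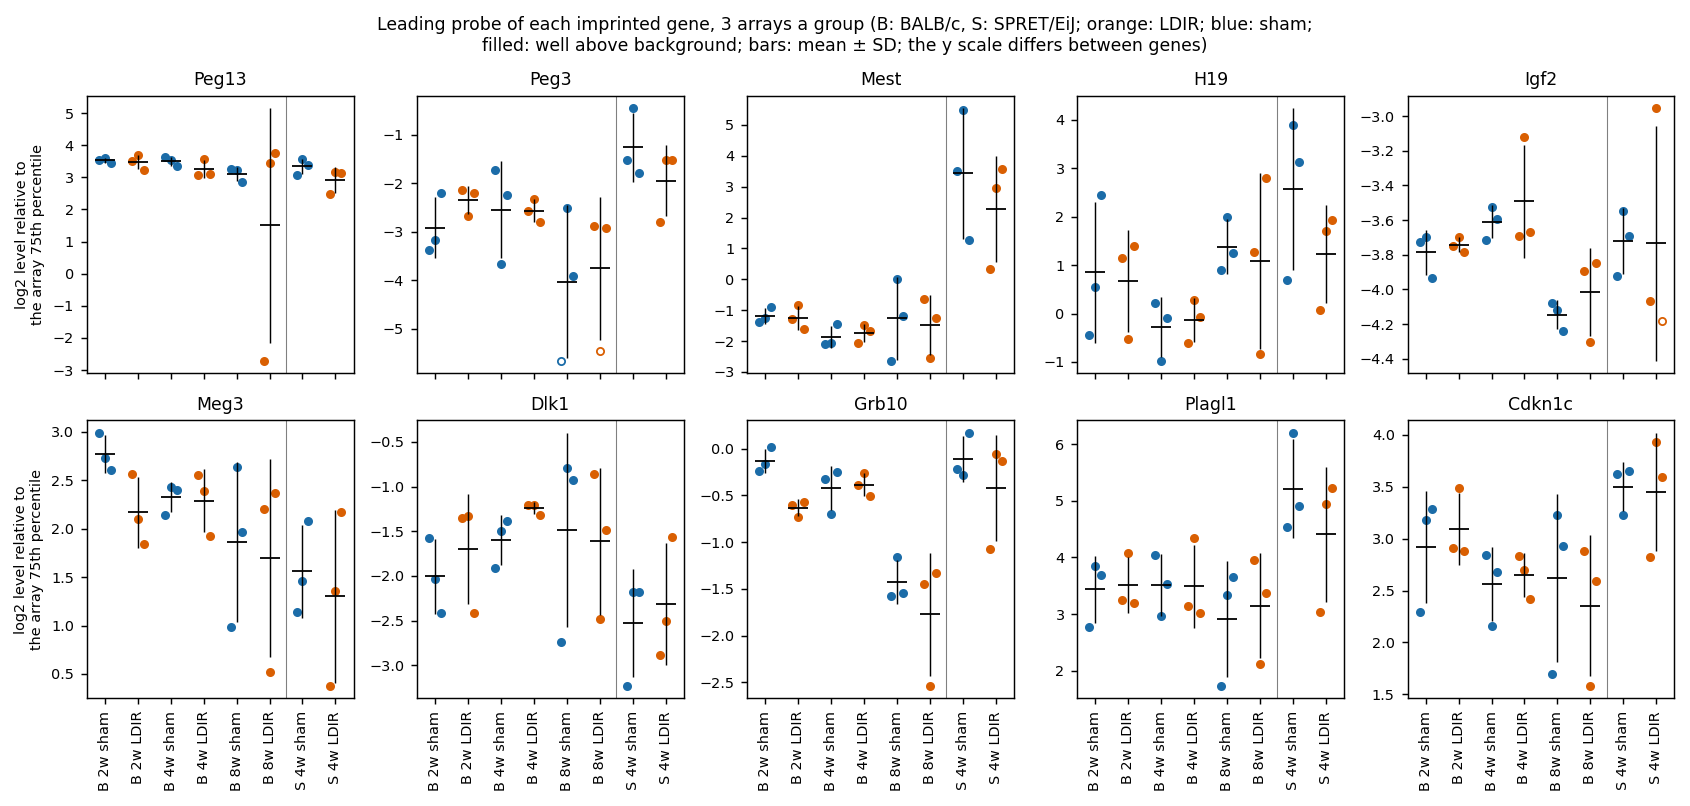
Log2 level (relative to the 75th percentile of the array) of the leading probe of each gene in the 8 groups, 3 arrays each; bars are mean ± SD, filled points are well above background, and the y scale differs between genes. Mest is above its BALB/c arrays on all 6 SPRET/EiJ arrays, Grb10 is lowest at 8 weeks in BALB/c, and 1 LDIR array at 8 weeks is far below the rest for Peg13.

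The question of the LDIR comparisons was whether 10 cGy changed these genes. At 2 weeks in BALB/c, 2 of 25 probes passed the LDIR thresholds (over 1.5-fold, unadjusted p under 0.05, limma), where 3.05% of all probes passed. No probe of the array had an adjusted p under 0.05, and the smallest was 0.526, while 2799 had an unadjusted p under 0.05, among them 3 of the members. Meg3 read 2.99, 2.73 and 2.60 in sham and 2.57, 2.10 and 1.84 in LDIR glands with its leading probe, so every LDIR array was below every sham array. The difference was -0.60 ± 0.23 (limma adjusted p = 0.869). The dim Meg3 probe differed by -0.26, and no Meg3 probe other than the leading one passed. The upstream Mest probe A_55_P2151868 was higher after LDIR by 0.69 ± 0.25 (limma adjusted p = 0.869), while the leading Mest probe differed by -0.07.

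Grb10 read -0.24, -0.17 and 0.01 in sham and -0.60, -0.73 and -0.57 in LDIR glands at 2 weeks. The difference, -0.50 ± 0.14 (limma adjusted p = 0.869), was under 1.5-fold although the groups did not overlap. Groups failed to overlap for 3 of the 25 probes, where 11.8% of all probes did not overlap. With the replicate letter as a replicate block, 3 probes passed at 2 weeks, where 2076 of all probes passed, against 1699 without the block. The added probe was A_55_P2163319 of Peg3, with a log2 difference of 0.68 ± 0.23 (limma adjusted p = 0.731). All 6 arrays at 2 weeks were on slide 1. The calls rested on single arrays: Meg3 lost its call without LDIR array B or C or sham array A or B, and Mest without LDIR array B or sham array B or C.

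At 4 weeks in BALB/c none of the 25 probes passed, where 4.83% of all probes passed, and 1 had an unadjusted p under 0.05 in limma. Over all probes none had an adjusted p under 0.05 (smallest 0.318) and 3440 had an unadjusted p under 0.05. The methods' t-test also called no member probe. The probe with the small p was the dim H19 probe A_55_P1961125, at -4.14, -4.23 and -3.91 in sham and -3.71, -3.55 and -3.32 in LDIR glands (0.56 ± 0.18, limma adjusted p = 0.775, under 1.5-fold). Groups did not overlap for this probe and for leading Dlk1, 2 of 25, where 12.6% of all probes did not overlap. Dlk1 read -1.20, -1.21 and -1.32 after LDIR and -1.92, -1.50 and -1.39 in sham glands (0.36, 95% interval -0.10 to 0.82). The leading probes of the other 9 genes had differences between -0.24 and 0.15. Within slide 2, which held the 3 LDIR arrays and 1 sham array, Dlk1 differed by 0.14 and the dim H19 probe by 0.38.

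In SPRET/EiJ at 4 weeks 1 of 25 probes passed, where 2.21% of all probes passed. It was A_55_P2163319 of Peg3, at -5.25, -4.98 and -4.55 in sham and -6.41, -5.68 and -6.27 in LDIR glands. It was lower after LDIR by -1.19 ± 0.32 (limma adjusted p = 0.972) and was not well above background on any LDIR array, so sham was at least 1.20-fold higher. It was also the only probe of the 25 whose groups did not overlap, against 5.89% of all probes. The leading Peg3 probe differed by -0.69 (95% interval -1.87 to 0.48), and by -0.27 ± 0.43 without LDIR array A.

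After LDIR 23 of the 25 SPRET/EiJ probes had a lower mean, where 53.4% of all probes had a higher one. Their median was -0.69, beside 0.03 over all probes. These values rested in part on array A, the LDIR array high in lymphocyte markers. H19 differed by -1.33 with it and -0.75 without it, Mest by -1.14 and -0.16, and Plagl1 by -0.81 and -0.12. Without the array the median of the 25 probes was -0.16. That median was -0.31 without sham array B, and -0.90 without LDIR array B or C. Sham array A mattered as well. It was the lowest sham array for H19, and without it 7 probes passed, 6 of them of H19, the leading one at -2.27 ± 0.64 (limma adjusted p = 0.976). In that fit 1061 of all probes passed, against 1230 with all arrays. With all arrays the adjusted p of no probe on the array was below 0.972, and 1238 had an unadjusted p under 0.05.

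**Figure D5:**
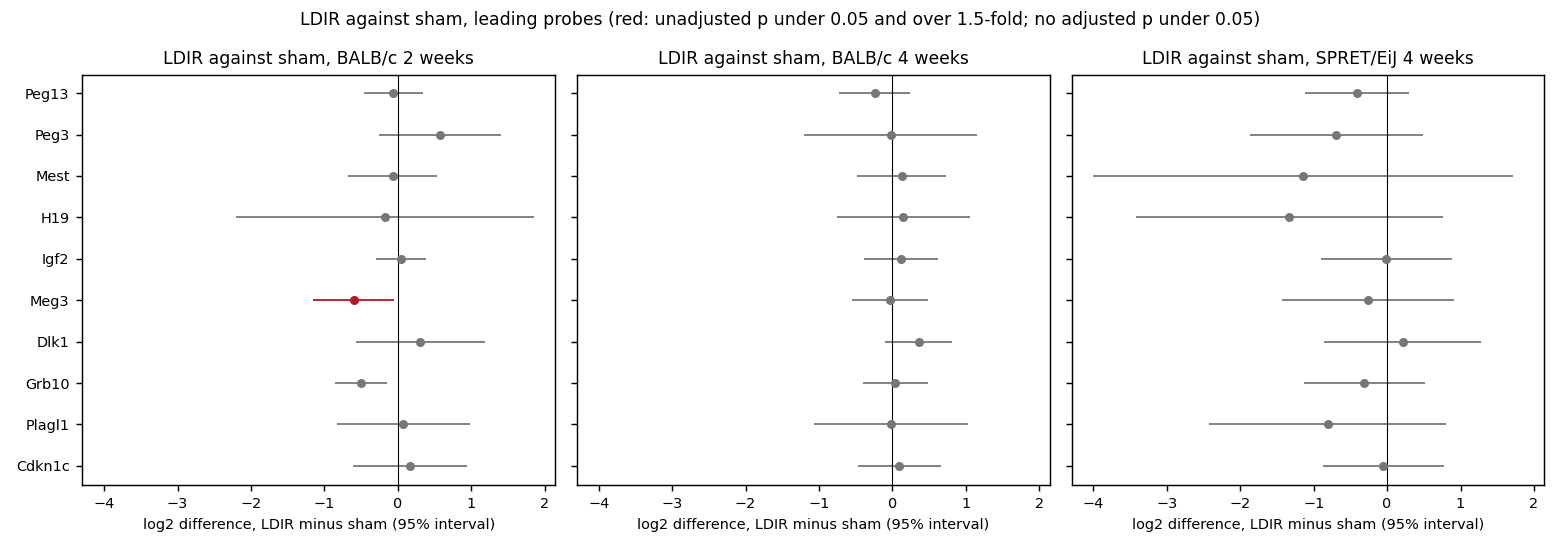
Log2 difference, LDIR minus sham, of the 10 leading probes with 95% intervals, for BALB/c at 2 weeks, BALB/c at 4 weeks and SPRET/EiJ at 4 weeks. Only Meg3 at 2 weeks (-0.60) passed the LDIR thresholds, and the intervals of Mest and H19 in SPRET/EiJ are the widest.

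The LDIR change of the strains at 4 weeks was compared by an interaction term. Not 1 of the 25 probes passed, where 3.59% of all probes passed, and none had an unadjusted p under 0.05 in limma, while 2003 of all probes had. The term, the BALB/c change minus the SPRET/EiJ change, was positive for 24 of the 25, where 51.4% of all probes were positive. Its median was 0.67, beside 0.02 over all probes, and 0.29 without the LDIR SPRET/EiJ array high in lymphocyte markers. Without that array the term was negative for leading Peg13, Igf2, Meg3, Dlk1 and Cdkn1c, at -0.24 to -0.03. For the other leading probes it stayed positive, at 0.02 to 0.90. Without SPRET/EiJ sham array A 6 probes passed, all of H19, where 2266 of all probes passed, against 2001 with all arrays. The LDIR change in BALB/c at 4 weeks against 2 weeks passed for 1 probe, where 3.66% of all probes passed. This was A_55_P2163319 of Peg3, which changed by 0.68 at 2 weeks and by -0.60 at 4 weeks, a difference of -1.28 ± 0.54 (limma adjusted p = 0.999). Grb10 had a difference of 0.54 ± 0.22, under 1.5-fold (limma adjusted p = 0.999).

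Peg13, a noncoding RNA gene within an intron of Trappc9, was even across the glands apart from a single array. It read 3.53, 3.61 and 3.45 in sham and 3.50, 3.68 and 3.23 in LDIR BALB/c glands at 2 weeks. At 4 weeks sham BALB/c glands gave 3.62, 3.53 and 3.35, and LDIR glands 3.08, 3.58 and 3.11. SPRET/EiJ arrays ran from 2.47 to 3.55. At 8 weeks sham glands read 3.26, 3.22 and 2.85, and LDIR glands read -2.71, 3.46 and 3.75. The -2.71 of LDIR array A lay 5.17 below the lowest of the other 23 arrays. Its raw mean intensity was 112 over a local background of 24, while the other 23 arrays ran from 3033 to 7132. The spot was still called well above background and carried no outlier flag. Peg13 is printed as a single spot, so no second spot on that array can be read. Of 31448 probes, this was the only one on that array more than 5 log2 below all other arrays. LDIR SPRET/EiJ array B also had 1 such probe. The LDIR change of Peg13 at 8 weeks was -1.61 with LDIR BALB/c array A and 0.50 without it, a change of sign that turns on this array. No cause of the low value was tested.

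The other members at 8 weeks are described for the same comparison. The count past the LDIR thresholds was 0 of the 25, beside 1.92% of all probes, and nothing is read from it because the members were chosen on this comparison. Leading probes other than Peg13 changed by -0.35 to 0.27, and the arrays high in lymphocyte markers, 1 in each group, gave the lowest values of 8 genes. Leading H19 read 0.90, 2.00 and 1.25 in sham and 1.27, -0.82 and 2.81 in LDIR glands. The summed skeletal muscle markers of the same arrays were 7.26, 5.82 and 7.64 in sham and 7.72, 2.65 and 9.85 in LDIR glands. Among the sham arrays the highest H19 thus lay on the array lowest in muscle markers. The change of H19 was -0.30 with all arrays and 0.41 without the 2 arrays high in lymphocyte markers, an analysis chosen after the data were seen. Mest changed by -0.21 with all arrays and by -0.35 without them. Meg3 changed by -0.16 and -0.01.

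Time in the unirradiated BALB/c gland was compared between 8 and 2 weeks after sham treatment. Among the 25 probes 2 passed, where 16.2% of all probes passed, and 4 did not overlap, where 28.3% did not. No probe of the array had an adjusted p under 0.05 in limma (smallest 0.0636), while 9849 had an unadjusted p under 0.05. Grb10 read -0.24, -0.17 and 0.01 at 2 weeks and -1.57, -1.16 and -1.55 at 8 weeks, a difference of -1.29 ± 0.21 (2.45-fold, limma adjusted p = 0.0868). LDIR glands at 8 weeks, which were not used in this comparison, read -1.45, -2.53 and -1.33, so all 6 BALB/c arrays at 8 weeks were below the 12 at 2 and 4 weeks, which reached no lower than -0.73. Leaving out the sham array high in lymphocyte markers gave -1.22 ± 0.20 (limma adjusted p = 0.044). In that fit 2186 of all probes had an adjusted p under 0.05. The dim Dlk1 probe A_55_P2105371 was higher at 8 weeks by 1.40 ± 0.36 (limma adjusted p = 0.148), and the leading Dlk1 probe by 0.52 (95% interval -0.91 to 1.95).

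Without that sham array 5 probes passed, where 11802 of all probes passed, against 8995 with all arrays. The further ones were leading Dlk1 at 1.14 ± 0.28 (limma adjusted p = 0.0857) and 2 of the Meg3 probes. These Meg3 probes went in opposite directions, the dim probe lower at 8 weeks by -1.57 and the other higher. Without sham array C at 2 weeks 8 passed, where 6071 of all probes passed. Of the 8, 6 were of H19, the leading one at 1.33 ± 0.49 (limma adjusted p = 0.447). That array had the highest H19 of its group, 2.44, and summed skeletal muscle markers at 9.29, against 3.64 and 4.48 on the other sham arrays at 2 weeks and 5.82 to 7.64 on those at 8 weeks. H19 correlated with the muscle list at 0.70 over the 24 arrays and 0.62 over the 18 without the 8-week groups, group means removed, and the part of muscle in the H19 values was not tested. Sham arrays at 2 weeks lay on slide 1 and those at 8 weeks on slide 2, so these arrays alone do not separate slide from time. The sham glands at 4 weeks lay on both slides, and in the fit of all 24 arrays with slide as a fixed block Grb10 differed by -1.55 ± 0.52 (limma adjusted p = 0.362) and was the only probe of the 25 past the thresholds. White adipocyte markers were also lower at 8 weeks for 7 of 9 genes, with a median of -0.97, and brown adipocyte markers for 3 of 5, with a median of -1.75. Their part in the Grb10 difference was not tested.

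The order of the groups by mean level was seldom resolved for these probes. For 19 of the 25 probes all 7 neighbouring pairs in the order overlapped. The same share over all probes was not counted, so this is a description. The dim Dlk1 probe A_55_P2105371 overlapped in 5 of its 7 pairs. For Mest the gap fell between the SPRET/EiJ and BALB/c groups, with LDIR SPRET/EiJ at a mean of 2.28 ± 1.72 (SD, n = 3) and the next group, BALB/c sham at 2 weeks, at -1.18 ± 0.26. For Grb10 it fell between BALB/c LDIR at 2 weeks, -0.63 ± 0.09, and sham at 8 weeks, -1.43 ± 0.23, and also between sham at 2 weeks, -0.13 ± 0.13, and LDIR at 4 weeks, -0.39 ± 0.12. For Meg3 the highest group, sham at 2 weeks at 2.77 ± 0.20, did not overlap the next, sham at 4 weeks at 2.32 ± 0.16.

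Some members varied together from array to array. After removal of the group means, leading Meg3 and leading Dlk1, which lie in the same imprinted cluster, had a correlation of 0.85 over the 24 arrays and 0.80 over the 18 arrays without the 8-week groups. H19 and Igf2, also neighbours, had 0.29. With the summed stromal markers 8 of the 10 leading probes correlated at 0.56 (H19) to 0.88 (Cdkn1c), and with the lymphocyte markers at -0.82 (Meg3) to -0.48 (H19). Without the 8-week groups these ran from 0.43 (Mest) to 0.86 (Grb10) and from -0.75 (Grb10) to -0.30 (H19). Igf2 had 0.24 and -0.34 over the 24 arrays, and Peg13, with its low value among them, had -0.24 and 0.29. Over the 18 arrays without the 8-week groups Igf2 had 0.25 and -0.45, and Peg13 had 0.60 and -0.68. The stromal list was not alone. Over the 24 arrays the same 8 probes correlated with white adipocyte markers at 0.52 (Dlk1) to 0.79 (Plagl1). With brown adipocyte markers they had 0.38 (Dlk1) to 0.71 (Grb10). For Mest and H19 the white adipocyte values, 0.70 and 0.61, were above the stromal ones, 0.62 and 0.56. These values share arrays, slides and the 3 arrays high in lymphocyte markers, and are descriptions. Among about 21379 other genes well above background on all arrays, the gene most like each member was Olfml3 for Cdkn1c (0.96), Crtap for Plagl1 (0.95), Sept5 for Mest (0.94), Ift122 for Meg3 (0.91), Trip10 for Dlk1 (0.90), Adamts12 for Grb10 (0.90), Col1a1 for Peg3 (0.89), Gnat2 for H19 (0.86) and Gm826 for Igf2 (0.70). The match of Peg13, Rpl41 (0.80), includes the low value on which the members were chosen, and nothing is read from it. With the other members Peg13 correlated at -0.29 to 0.03 over the 24 arrays and at 0.38 to 0.85 over the 18 without the 8-week groups.

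Other genes were read from a list of 88, of which 37 are imprinted genes of other regions and the rest lie in or beside the clusters of the members and need not be imprinted. By name 81 were measured. In sham glands 4 were higher and 4 lower in BALB/c past the strain thresholds, 9.88% of those measured, where 8.89% of all probes passed. An adjusted p under 0.05 was found for 14, where 18.8% of all probes had one. Nap1l5, a retrogene of the nucleosome assembly protein family, was higher in BALB/c by 4.89 ± 0.63 in sham (limma adjusted p = 0.0037, SPRET/EiJ well above background on 1 of 3 arrays) and by at least 17.5-fold in LDIR glands (limma adjusted p = 0.00048), where no SPRET/EiJ array was well above background. Slc22a18, a neighbour of Cdkn1c, was higher in BALB/c by 2.95 ± 0.25 in LDIR glands (limma adjusted p = 0.0014). In LDIR glands 5 passed, all higher in BALB/c, against 5.67% of all probes, and 7 had an adjusted p under 0.05, against 11.1%. After LDIR 0 of the 81 passed at 2 weeks, against 3.05% of all probes. At 4 weeks 3 passed, against 4.83%, all of them higher and well above background on only 2 or 3 of the 24 arrays. In SPRET/EiJ 2 passed, against 2.21%, and they were Tnnt3 at -1.30 ± 0.32, with the LDIR group well above background on 1 of 3 arrays, and Fignl1 at 0.78 ± 0.31, both with a limma adjusted p of 0.972.

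In sham BALB/c glands 15 of the 81 passed the thresholds between 8 and 2 weeks, 11 of them lower at 8 weeks and 4 higher, none with an adjusted p under 0.05. That is 18.5% of those measured, where 16.2% of all probes passed. Airn, the noncoding RNA that silences Igf2r and its neighbours, was lower by -2.82 ± 0.21 (limma adjusted p = 0.0657). Kcnq1ot1, the noncoding RNA that silences the Cdkn1c cluster, was lower by -2.67 ± 0.31 (limma adjusted p = 0.0676). Cdkn1c itself differed by -0.30 (95% interval -1.52 to 0.92) with all arrays and by 0.16 ± 0.35 without the 8-week sham array high in lymphocyte markers. Of 17 IGF and insulin signalling genes 5 passed, 1 higher and 4 lower, and of 13 NOTCH pathway genes 1 was higher and 1 lower, 23.3% of both lists together. Between the strains, 3 of the 17 IGF genes were lower in BALB/c in sham glands and 1 in LDIR glands, and no NOTCH gene passed in either. Of the 30 genes this is 10% in sham and 3.33% in LDIR glands, beside 8.89% and 5.67% of all probes. Igf2bp3, an RNA-binding protein that binds Igf2 mRNA, was at least 2.92-fold lower in sham BALB/c than in sham SPRET/EiJ glands (limma adjusted p = 0.00098). After LDIR no gene of these 2 lists passed at 2 weeks in BALB/c or in SPRET/EiJ, and at 4 weeks in BALB/c 2 of the 30 did, 6.67%, beside 3.05%, 2.21% and 4.83% of all probes at 2 weeks, in SPRET/EiJ and at 4 weeks. Igfbp6, an IGF2-binding protein, was 1 of them, higher by 0.81 ± 0.28 (limma adjusted p = 0.775).

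Because Plagl1 encodes a factor known to bind a GC-rich sequence, its motif GGGGCCCC, which reads the same on both strands, was counted in the RefSeq promoters of GRCm38.p6 (250 bases before to 50 after each start). Of the 10 members 7 had a promoter in the table, 14 promoters in all, and 1 of the 14, that of Peg3, held the motif. Among all promoters 1.08% held it. The match at Peg3 starts at position -201 and is shown with 8 bases on each side, the motif in capitals.
Peg3 promoter, chr7:6730605-6730628 (GRCm38.p6), minus strand: tctgcttgGGGGCCCCtaacactg
A match describes the letters of the window and is not a binding site, and a window without a match says only that these letters are not in it.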

How the data were processed

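Mammary gland total RNA from 24 arrays in 8 groups of 3 was read from the Agilent scanner files. Per the file headers the Cy3 intensity had been extracted with Feature Extraction 10.10.1.1 on a design placed on mm9. The authors also deposited log2 values, and 99.812% of those matched the values used here within 0.01. Here the processed intensity was scaled to the 75th percentile of each array, taken as log2, and averaged over the spots of a probe, without outlier spots and controls. No spot was saturated. The number of arrays limits the precision.

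Tests used limma (version 3.58.1, under R 4.3.3), fitted on all 55681 probes and only the arrays of the groups compared, in place of the unpaired test of the study's methods, with its thresholds of 1.5-fold and p under 0.05 (LDIR, time) or 0.001 (strain). Named genes were the 10 members, each led by its brightest probe, with at most 2 probes of the other lists per comparison by size of change, and the gene most like each member. The members and the lists of imprinted, IGF, NOTCH and cell type marker genes were chosen with earlier results of these data known. The fits were tested on simulated data. Alternatives covered background correction, normalization, the authors' values, outlier spots, dim probes, the methods' t-test, the replicate letter, slide, a joint fit and leaving out each array. Slide as a random block and leaving out the arrays high in lymphocyte markers were chosen after seeing the data. Arrays with the same letter at 2 weeks deviated together (correlations of 0.141, 0.442 and 0.101 over 34633 probes). A fit with the letter as a block is therefore given beside the main fit there, which has no block. The labels do not state a pairing, and at 8 weeks the same correlations were -0.559, -0.567 and 0.544. The other group pairs did not meet this in all 3 letters. The sequence and single values of a further Meg3 probe, which is included in all counts, are not reported here.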

Additional observations from a re-analysis of the deposited data

Results flagged for a closer look

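The Peg3 probe A_55_P2163319 had LDIR changes that differed between 4 and 2 weeks in BALB/c, by -1.28 on the log2 scale (limma interaction term, adjusted p = 0.999). Without each of the 12 arrays in turn the difference lay between -1.64 and -1.03. The probe did not pass without 2-week LDIR array A or C or 2-week sham array A or B. It also failed without 4-week sham array A or C or 4-week LDIR array C. With normexp background correction, the methods' t-test, the joint fit or slide as a block it did not pass either.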

How the results depend on the processing

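Counts of the 25 probes that passed were 2 at 2 weeks, 0 at 4 weeks, 0 at 8 weeks and 1 in SPRET/EiJ for LDIR, 2 for strain in sham, 2 for strain in LDIR, 2 for 8 against 2 weeks in sham, 0 for the strain interaction and 1 for the time interaction. The counts at 8 weeks are descriptions, since the members were chosen on that comparison. The authors' values and keeping outlier spots left these 9 counts as they were. With normexp background correction they were 1 at 2 weeks, 0 in SPRET/EiJ and 0 for the time interaction. Quantile normalization gave 0 at 2 weeks, 1 at 4 weeks, 0 for strain in sham, 1 for strain in LDIR and 3 for sham time. Detected probes only gave 1 at 8 weeks, 0 in SPRET/EiJ and 3 for strain in sham. The methods' t-test gave 0 at 2 weeks, 0 for strain in sham, 1 for strain in LDIR and 0 for the time interaction. A joint fit of all 24 arrays gave 0 at 2 weeks, 2 at 8 weeks, 0 in SPRET/EiJ, 3 for strain in sham, 5 for strain in LDIR and 0 for the time interaction. Slide as a block in that fit gave 0 at 2 weeks, 1 at 8 weeks, 0 in SPRET/EiJ, 1 for strain in LDIR, 1 for sham time and 0 for the time interaction. The single probes at 8 weeks and for strain in LDIR were Peg13, whose low value at 8 weeks was used to choose the members. Slide as a random block gave 3 for strain in sham. The replicate block gave 3 at 2 weeks, where a pairing by letter is not stated in the labels. Elsewhere it gave 7 in SPRET/EiJ and 0 for strain in sham, with the other counts as above. Leaving out each array gave 0 to 2 at 2 weeks, 0 to 2 at 4 weeks, 0 to 1 at 8 weeks, 1 to 7 in SPRET/EiJ, 0 to 5 for strain in sham, 1 to 9 for strain in LDIR, 2 to 8 for sham time, 0 to 6 for the strain interaction and 0 to 2 for the time interaction. The 6 of the strain interaction were H19 probes, without SPRET/EiJ sham array A. The cause of these moves was not tested. For single called probes, 154 values under the alternatives kept direction and call, 111 kept direction only, and none turned. Dim probes, 7 of the 25, were not well above background on every array.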
